A study of Mus musculus with 4 samples.

Results

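The 10 genes described here belong to the IL-6 cytokine family and its main signalling arm, joined by the epithelial cytokine gene Tslp, and were measured in sorted mouse skin tumour cells on and after DMBA. The genes were taken by symbol from the deposited table: Il6, Il11, Lif, Osm, Osmr, Il6ra, Il6st, Socs3, Stat3 and Tslp. All 10 were found among the 22222 genes of the table, and all 10 passed the filter on low values that left 15419 genes to test. DMBA is a carcinogenic polycyclic hydrocarbon, and 20 weeks of it gave the mice keratoacanthomas, tumours of the skin known for regressing by themselves. Tumours were collected from 2 mice still on DMBA (0 weeks after it) and from 2 other mice kept without DMBA for 1 week, so that all 4 mice had the 20 weeks of DMBA in common. RNA was taken from Tomato+/P-cadherin+ cells after sorting, and the labels state neither strain nor age nor what drives the Tomato label. The title of the series places the comparison in the question of how such tumours regress.

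Cytokines of the IL-6 family bind a receptor chain of their own and then the shared chain gp130, which Il6st encodes. Janus kinases bound to these chains phosphorylate STAT3, which enters the nucleus and induces, among others, Socs3, whose product blocks the same kinases. In skin the family is known from wound repair and inflammation, and STAT3 in keratinocytes is needed for chemically induced skin tumours. TSLP is a cytokine released by keratinocytes under stress that signals through another receptor to STAT5 and favours type 2 immune responses.

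The libraries held 9678682 and 5635945 recovered reads on DMBA and 5551937 and 7662159 at 1 week, for replicates 1 and 2. Levels are given as scaled CPM, reads relative to a scaled library size, in the order on-DMBA replicates 1 and 2, then 1-week replicates 1 and 2. On-DMBA replicate 1 stood apart. It held the highest level of all 12 keratinocyte markers, whose summed level was 57673, 593, 4871 and 3760 scaled CPM. It was also lowest in 9 of 10 fibroblast markers (summed level 243, 42152, 48451 and 50912), in 9 of 9 macrophage and dendritic cell markers (25.9, 19636, 8071 and 12935) and in all 5 leukocyte markers (6.41, 2001, 1147 and 2163). The summed neutrophil markers were at 61.9, 349, 135 and 158, those of T and NK cells at 3.68, 33.6, 63.5 and 83.4, of mast cells at 0.831, 8.26, 13.3 and 43.8, and of endothelium at 6.53, 191, 685 and 1563. The defining mast cell genes Mcpt4, Tpsb2, Cma1, Fcer1a and Ms4a2 were at 0 in on-DMBA replicate 1, and the neutrophil genes Ngp and Camp were too. Keratinocyte markers thus led in on-DMBA replicate 1, while the other 3 libraries carried more fibroblast than keratinocyte marker RNA, although all 4 were sorted through the same Tomato+/P-cadherin+ gate. The marker RNA of these 3 libraries was thus not mainly that of the epithelial cells the labels name. In such bulk samples a smaller share of cells of a type and less RNA per cell cannot be told apart. Each result is therefore given also with either on-DMBA library left out where this bears on it, and the part of the marker differences in it was not tested.

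**Figure D1:**
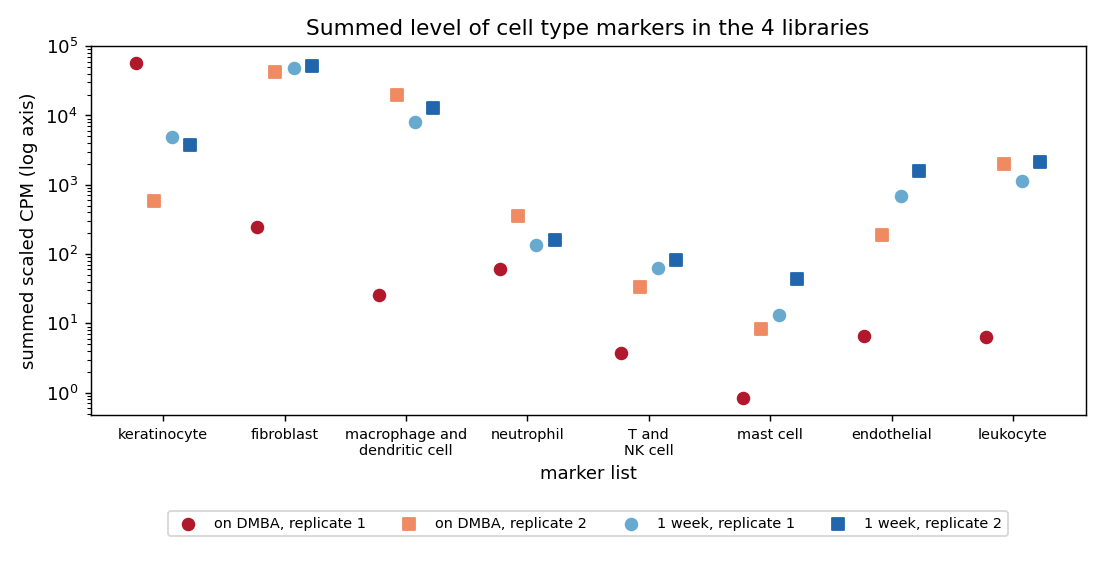
Summed scaled CPM (log axis) of 8 lists of cell type markers, 1 point per library; colours and shapes mark the library. On-DMBA replicate 1 is highest for keratinocyte markers at 57673 and lowest for each of the other 7 lists.

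For Il6, Il11, Osm and Osmr each 1-week library lay above each on-DMBA library, and for Tslp each lay below. The groups overlapped for Lif, Il6ra, Il6st, Socs3 and Stat3. Groups that did not overlap were found with 4 of the 10 genes higher, beside 14% of all genes tested, and with 1 of 10 lower, beside 9.14% of all genes tested. None of the 10 passed limma's test at an adjusted p under 0.05, where 0% of all genes passed (0 of 15419 higher and 0 lower). On reads recovered from the signal, edgeR passed 0% of all genes and DESeq2 0.104% as higher and 0.0195% as lower, with 0 of the 10 in either. With no adjustment, limma gave p under 0.05 for 2.28% of genes as higher (352) and 0.195% as lower (30), and Tslp was 1 of these 30. Tslp reached the level of the filter in both on-DMBA libraries and in neither 1-week library. A gene that passes in this way is always lower without overlap, so the filter fixed its place in that count. The median log2 difference, 1 week minus on DMBA, was 0.73 over the 10 genes and -0.02 over all genes tested. Over the 10 genes it was 0.06 with on-DMBA replicate 1 left out and 1.40 with replicate 2 left out instead. In 9 of the 10 genes, all but Osmr, the gap between the on-DMBA libraries exceeded the difference of the groups, as was so for 78.2% of all genes tested.

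**Figure D2:**
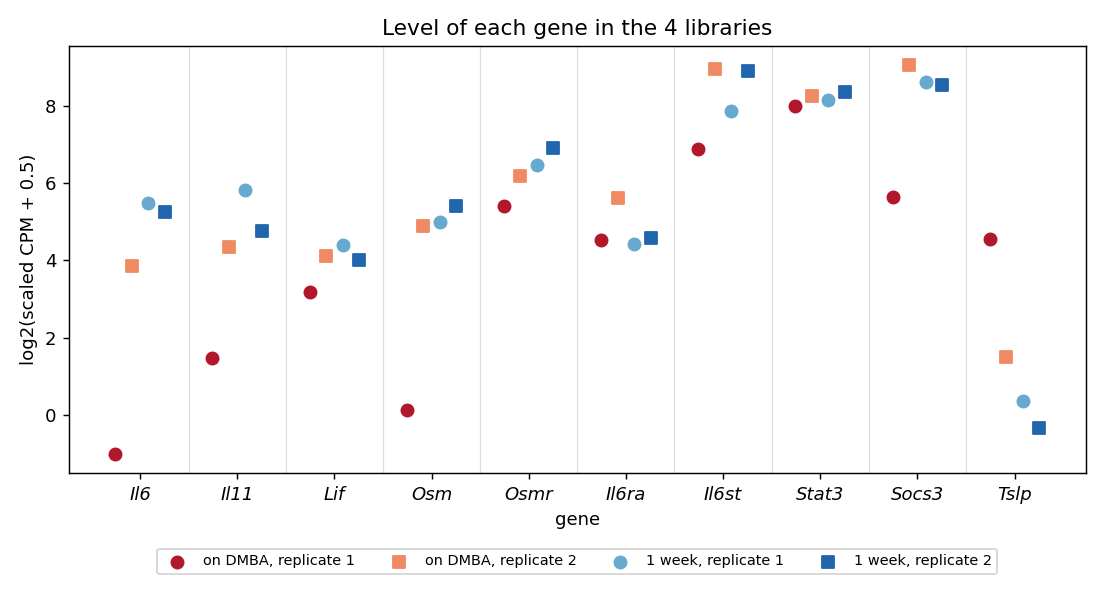
Level of each of the 10 genes as log2(scaled CPM + 0.5) in the 4 libraries, 1 point per library, with red shades for on DMBA and blue shades for 1 week. On-DMBA replicate 1 is the lowest point for 8 of the 10 genes, second lowest for Il6ra and highest for Tslp.

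Il6 encodes the founding cytokine of the family, made by fibroblasts, macrophages and keratinocytes in inflamed tissue. It was at 0, 14.0, 44.4 and 37.5 scaled CPM, from 0, 78, 284 and 263 reads. Both 1-week libraries lay above both on-DMBA libraries, and the 1-week libraries lay close together. The log2 difference was 3.94 (SE 1.62, n = 2 per group), with limma's unadjusted p = 0.0566 and adjusted p = 0.9997. The mean at 1 week was at least 115-fold higher than on-DMBA replicate 1, taken at its floor of 3 reads in that library (0.356 scaled CPM). Against on-DMBA replicate 2 the mean was 2.93-fold higher, and without on-DMBA replicate 1 the log2 difference was 1.51 (SE 0.55, limma adjusted p = 0.123). From on-DMBA replicate 2 to the 1-week libraries the summed fibroblast markers went from 42152 to 48451 and 50912, the keratinocyte markers from 593 to 4871 and 3760, the endothelial markers from 191 to 685 and 1563, and the macrophage and dendritic cell markers from 19636 to 8071 and 12935. Their part in the Il6 difference was not tested.

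Il11, which encodes a cytokine of stromal cells with its own receptor chain beside gp130, was at 2.26, 19.9, 56.0 and 26.8 scaled CPM. The lower 1-week library lay just above on-DMBA replicate 2. Its log2 difference was 2.39 (SE 1.10), with limma's unadjusted p = 0.0786 and adjusted p = 0.9997, and 0.94 without on-DMBA replicate 1. The 1-week libraries themselves differed by 1.05 on the log2 scale, a larger gap than that from on-DMBA replicate 2 to their mean.

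The RefSeq promoters of Il6 and Il11 are shown because these 2 genes differed most from on-DMBA replicate 2 among those higher at 1 week, and that of Socs3 because Socs3 is the feedback gene of the pathway. Each is the 250 bases before the annotated start on build GRCm38.p6, 5′ to 3′ on the strand of the gene, with motif matches in capitals. Of 2 annotated starts of Il11, the one with a match is printed. The Il6 stretch is chr5:30012864-30013113 on the plus strand, the Il11 stretch chr7:4778142-4778391 on the minus strand and the Socs3 stretch chr11:117969367-117969616 on the minus strand.
Il6: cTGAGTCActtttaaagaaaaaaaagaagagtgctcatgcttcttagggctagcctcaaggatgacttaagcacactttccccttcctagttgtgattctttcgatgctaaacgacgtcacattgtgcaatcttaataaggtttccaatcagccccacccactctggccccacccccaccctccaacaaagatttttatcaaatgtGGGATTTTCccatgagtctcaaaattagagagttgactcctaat
Il11: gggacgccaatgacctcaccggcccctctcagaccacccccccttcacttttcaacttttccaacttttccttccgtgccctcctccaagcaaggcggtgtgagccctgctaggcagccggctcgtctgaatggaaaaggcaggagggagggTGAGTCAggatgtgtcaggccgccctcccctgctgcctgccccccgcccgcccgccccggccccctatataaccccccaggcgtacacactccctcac
Socs3: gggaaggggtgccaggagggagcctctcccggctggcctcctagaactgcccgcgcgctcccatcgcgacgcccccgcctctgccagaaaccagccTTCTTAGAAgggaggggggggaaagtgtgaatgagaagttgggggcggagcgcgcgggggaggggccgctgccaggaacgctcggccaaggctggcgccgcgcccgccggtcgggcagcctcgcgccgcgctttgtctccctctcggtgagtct
Counted from the annotated start, the capitals in Il6 are an AP-1 motif at -249 to -243 and an NF-kappaB motif at -44 to -36. Those in Il11 are an AP-1 motif at -98 to -92, and those in Socs3 a STAT motif at -154 to -146. The motifs searched on both strands were TGANTCA for AP-1, the core GGGANTTTC for NF-kappaB (GAAANTCCC on the other strand) and TTCNNNGAA for STAT, none of which overlapped another in these stretches. Of 32851 annotated starts, 6.75% held the AP-1 motif in the same window, 0.941% the NF-kappaB core and 7.02% the STAT motif. The table holds 9 starts of 8 of the 10 genes, and AP-1 letters were in 3 of these (Il6, Il11 and Lif), NF-kappaB letters in 1 and STAT letters in 1. A match describes letters only.

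Osm encodes oncostatin M, a cytokine made mainly by myeloid and T cells that acts on keratinocytes and fibroblasts. It was at 0.594, 29.4, 31.6 and 41.8 scaled CPM, from 5, 164, 202 and 293 reads. The on-DMBA libraries were far apart, and on-DMBA replicate 2 was just below the lower 1-week library. The log2 difference was 2.69 (SE 1.58, limma adjusted p = 0.9997) and shrank to 0.30 without on-DMBA replicate 1. The 95% Poisson intervals, which cover counting error only, were 25.1 to 34.3 scaled CPM in on-DMBA replicate 2 and 27.4 to 36.2 in 1-week replicate 1, so that the order of these libraries was not detectable at this depth. The myeloid markers stood at 25.9 in on-DMBA replicate 1 and between 8071 and 19636 in the other 3 libraries, as given above.

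Lif, which encodes leukaemia inhibitory factor, a family cytokine of epithelium and stroma, was at 8.55, 16.7, 20.6 and 15.7 scaled CPM. On-DMBA replicate 2 lay between the 1-week libraries. Its log2 difference was 0.57 (SE 0.64, limma adjusted p = 0.9997), and 0.11 without on-DMBA replicate 1. Of the cytokine genes here it differed least among the 4 libraries, and it was clearly present in the keratinocyte-rich on-DMBA replicate 1, with 72 reads.

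Among the receptor chains, Osmr was the one whose groups did not overlap. It encodes the chain that pairs with gp130 to bind oncostatin M, and also takes part in the IL-31 receptor. Its level was 41.9, 72.1, 88.5 and 120 scaled CPM, with both on-DMBA libraries below both 1-week libraries. The log2 difference was 0.90 (SE 0.54), with limma's unadjusted p = 0.155 and adjusted p = 0.9997. It was 0.51 with on-DMBA replicate 1 left out and 1.29 with replicate 2 left out. As the groups did not overlap, leaving out a library could not turn its sign.

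Il6ra, which encodes the IL-6 binding chain, was at 22.4, 48.3, 20.9 and 23.4 scaled CPM. On-DMBA replicate 2 was high, and the other 3 libraries were close together. The log2 difference was -0.56 (SE 0.61, limma adjusted p = 0.9997), -1.11 with on-DMBA replicate 1 left out and -0.02 with replicate 2 left out. After median ratio scaling both 1-week libraries lay below both on-DMBA libraries, which made it the second of the 10 genes to be lower without overlap.

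Il6st, which encodes gp130, was at 117, 498, 233 and 480 scaled CPM. The higher library of each group was about level with that of the other, and the groups overlapped. Its log2 difference was 0.47 (SE 0.90, limma adjusted p = 0.9997). The sign turned when on-DMBA replicate 1 (-0.57) or 1-week replicate 2 (-0.050) was left out.

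Levels of different genes were compared per kilobase of annotated exon (GENCODE M21, all exons of a gene merged), a scale on which transcripts that use fewer exons appear too low. On this scale Il6st stood above Osmr, and Osmr above Il6ra, in each of the 4 libraries. In scaled CPM per kilobase, Il6st was at 10.7, 45.4, 21.3 and 43.7, Osmr at 7.63, 13.1, 16.1 and 21.9, and Il6ra at 2.60, 5.59, 2.42 and 2.71. The cytokine genes changed places between libraries. In on-DMBA replicate 1 the order was Tslp (20.4), Lif (2.11), Il11 (1.08), Osm (0.261) and Il6, listed at 0. In the 1-week libraries Tslp was the lowest of the 5, at 0.694 and 0.253, and Il11 (26.9 and 12.9), Il6 (18.3 and 15.4) and Osm (13.9 and 18.4) were above Lif (5.09 and 3.87). On-DMBA replicate 2 also had Tslp as the lowest of the 5, at 2.07, below Lif (4.12), Il6 (5.77), Il11 (9.57) and Osm (13.0). Between the 1-week libraries Il11 and Osm changed places, with Il6 between them in both.

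Stat3, the transcription factor gene on which the family converges, was nearly level, at 256, 305, 286 and 330 scaled CPM. The log2 difference was 0.14 (SE 0.55, limma adjusted p = 0.9997), with 0.01 when on-DMBA replicate 1 was left out and 0.26 when replicate 2 was. Of the 10 genes it differed least between the on-DMBA libraries, by 0.25 on the log2 scale. The summed keratinocyte markers of these libraries stood at 57673 and 593, and their part in the Stat3 levels was not tested. The Stat3 values are RNA levels, and the phosphorylated protein was not measured.

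Socs3, the feedback inhibitor induced by STAT3, whose promoter is printed above, was at 49.5, 529, 395 and 371 scaled CPM. It was high in 3 libraries, with on-DMBA replicate 2 the highest, and the 1-week mean was 7.74-fold above on-DMBA replicate 1. The difference between the on-DMBA libraries was 3.40 on the log2 scale, against 0.09 in size between the 1-week libraries (-0.09, replicate 2 minus replicate 1). The group difference was 1.24 (SE 1.18, limma adjusted p = 0.9997) and turned to -0.47 without on-DMBA replicate 1, while leaving out replicate 2 gave 2.94. On recovered reads it was 0.42 in edgeR and 0.37 in DESeq2.

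Tslp ran against the other cytokine genes. It was at 22.9, 2.33, 0.781 and 0.285 scaled CPM, from 193, 13, 5 and 2 reads. The level was high in on-DMBA replicate 1 and low in the other 3 libraries, and both 1-week libraries were below on-DMBA replicate 2. Tslp passed the filter through the on-DMBA libraries alone, and a gene that does so is always lower without overlap. The log2 difference was -3.02 (SE 1.18), with limma's unadjusted p = 0.0490 and adjusted p = 0.9997. The counts methods gave -4.43 (edgeR, unadjusted p = 0.0254) and -4.50 (DESeq2, unadjusted p = 0.000939, adjusted p = 0.241). Without on-DMBA replicate 1 it was -1.50 (SE 1.52, limma adjusted p = 0.99996). The 95% Poisson intervals were 1.24 to 3.99 scaled CPM in on-DMBA replicate 2, 0.254 to 1.82 in 1-week replicate 1 and 0.0346 to 1.03 in 1-week replicate 2. That of on-DMBA replicate 2 thus overlapped with the interval of 1-week replicate 1 but not with that of 1-week replicate 2. The summed keratinocyte markers, at 57673, 593, 4871 and 3760, were highest in on-DMBA replicate 1 too, and their part in the Tslp difference was not tested.

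With on-DMBA replicate 1 as the only on-DMBA library, limma passed 5 of the 10 genes: Il6 (log2 difference 6.37), Il11 (3.83), Osm (5.07) and Socs3 (2.94) higher and Tslp (-4.55) lower at 1 week. That fit passed 14.3% of all genes as higher and 10% as lower. With on-DMBA replicate 2 as the only one, limma passed 0 of the 10, where it passed 2.35% of all genes as higher and 0.999% as lower. In both fits the lone library was assumed to vary like the 1-week libraries. Each gene's variance was also drawn toward that of genes of like level, so a pass does not measure the gene's own spread alone. Both fits share the 1-week libraries, and their values for the 10 genes are set side by side in the plot of 1 week against each on-DMBA library. Il6, Il11, Osm, Osmr, Lif and Stat3 were above 0 in both, Tslp and Il6ra below 0 in both, and Socs3 and Il6st above 0 in one and below it in the other. For the genes whose groups did not overlap, the sign could not turn in these fits.

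**Figure D3:**
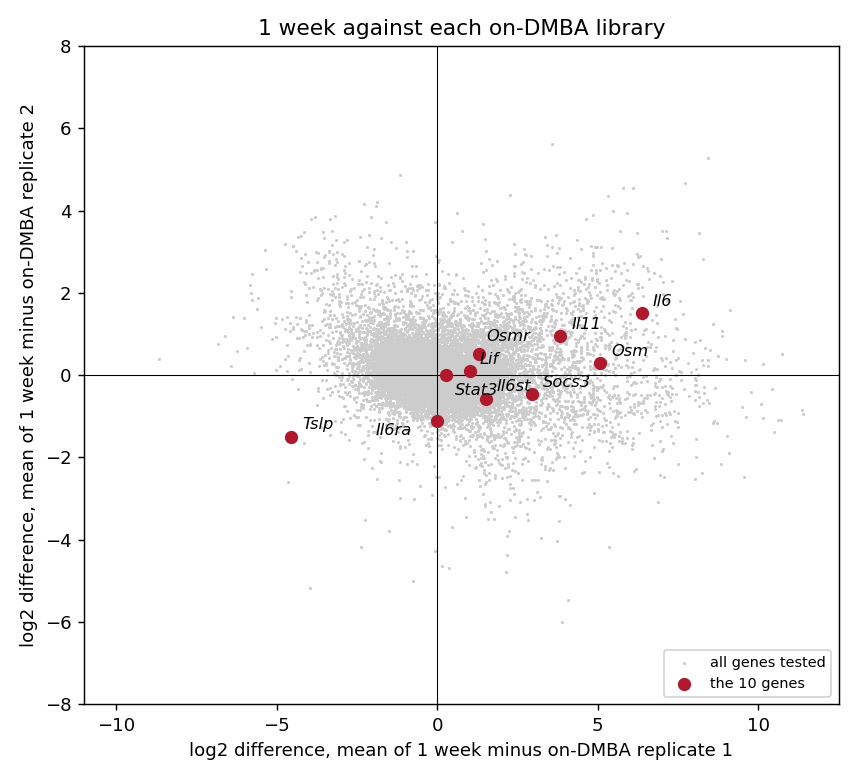
Log2 difference of the mean of the 1-week libraries from on-DMBA replicate 1 (x axis) and from on-DMBA replicate 2 (y axis), for all 15419 genes tested (grey) and the 10 genes (red). Il6 lies at 6.37 and 1.51, Tslp at -4.55 and -1.50, and Socs3 at 2.94 and -0.47.

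Other genes of the pathway were taken as fixed lists, and limma passed 0 genes of each list with all 4 libraries. The counts without overlap that follow stand beside 14% of all genes tested as higher and 9.14% as lower, and the medians beside -0.02 over all genes tested. Of 8 other ligands of the family 4 were tested, with 0 higher and 0 lower without overlap and a median log2 difference of 0.73. Ebi3, a subunit of IL-27 and IL-35, was at 0, 6.10, 3.75 and 3.71 scaled CPM. Clcf1, a ligand that acts through gp130 and the LIF receptor chain, was at 6.29, 3.95, 7.03 and 5.13. Both overlapped between groups, and Ebi3 was highest in on-DMBA replicate 2. Without on-DMBA replicate 1 the median of this list was -0.29.

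Of 6 other receptor chains tested, 3 were higher without overlap (14% of all genes tested) and 0 lower (9.14%), with a median of 1.10. That median was 0.27 with on-DMBA replicate 1 left out and 1.71 with replicate 2 left out. Il11ra1, the chain that binds IL-11, was at 7.24, 47.2, 58.3 and 75.6 scaled CPM, a log2 difference of 1.80 (SE 0.95) and of 0.49 without on-DMBA replicate 1. Il31ra, the partner of Osmr in the IL-31 receptor, was low, at 0.950, 0.179, 2.34 and 2.28 scaled CPM, with both 1-week libraries above both on-DMBA libraries. Its reads were 8, 1, 15 and 16. Il31ra reached the level of the filter only in the 1-week libraries, so the filter fixed its place among the 3. The third gene without overlap, Cntfr, was at 3.80, 3.41, 9.53 and 3.85, from 32, 19, 61 and 27 reads. Its lower 1-week library was barely above on-DMBA replicate 1. Il27ra was at 0.237, 6.82, 4.38 and 10.8. Lifr, the chain that binds LIF, was at 19.7, 361, 94.4 and 132, so that on-DMBA replicate 2 was the highest and on-DMBA replicate 1 the lowest library.

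Of 11 genes for the TSLP receptor and type 2 cytokines 7 were tested, and 3 of them, Il7r, Il1rl1 and Il7, were higher without overlap, beside 14% of all genes tested. Il25, Il4, Il5 and Il13 were below the filter. The median of this list was 0.80, with 0.22 when on-DMBA replicate 1 was left out and 1.44 when replicate 2 was. Crlf2, the chain that binds TSLP, was at 9.14, 106, 78.9 and 78.7 scaled CPM, low where Tslp was high. Il7r, the chain shared by the TSLP and IL-7 receptors, was at 0.237, 5.38, 21.9 and 60.0 scaled CPM. Its log2 difference was 4.14 (SE 1.20, limma unadjusted p = 0.0167, adjusted p = 0.9997). Il1rl1, the IL-33 receptor, was at 0.712, 14.4, 111 and 40.4, a log2 difference of 3.99 (SE 1.32, limma unadjusted p = 0.0277, adjusted p = 0.9997). Without on-DMBA replicate 1 the log2 differences were 2.65 for Il7r and 2.18 for Il1rl1, from 1 on-DMBA library against 2 at 1 week. The 1-week libraries themselves differed by 1.44 for Il7r and -1.45 for Il1rl1 on the log2 scale (replicate 2 minus replicate 1). Il7 was low, at 0.831, 1.44, 2.19 and 2.42 scaled CPM.

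Of 10 Janus kinases and other STATs, 2 were higher and 0 lower without overlap, with a median of 0.25. The median turned to -0.30 with on-DMBA replicate 1 left out and was 0.91 with replicate 2 left out. Jak2 was at 62.0, 83.1, 133 and 199 scaled CPM, a log2 difference of 1.17 (SE 0.52, limma unadjusted p = 0.0727) and of 0.96 without on-DMBA replicate 1. Stat5a, a STAT used by the TSLP receptor, was at 13.9, 23.5, 27.7 and 28.8 scaled CPM. Jak1, the main kinase of gp130, was at 302, 304, 205 and 356 and overlapped.

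Of 13 brakes on the pathway 2 were higher and 2 lower without overlap, and the median was -0.21. Socs2, which restrains growth hormone and STAT5 signalling, was at 2.73, 14.0, 30.2 and 44.8 scaled CPM, a log2 difference of 2.44 (SE 0.89, limma unadjusted p = 0.038, adjusted p = 0.9997) and of 1.36 without on-DMBA replicate 1. Socs1 was at 5.11, 5.74, 14.2 and 6.42, also without overlap. Socs5 was at 49.0, 42.7, 23.0 and 28.7, lower without overlap, and the leukocyte phosphatase gene Ptpn6 at 22.1, 243, 156 and 257. The sheddase genes Adam10 and Adam17, whose products release the IL-6 receptor from the cell surface, were at 261, 101, 64.9 and 132 and at 151, 248, 184 and 326, both with overlap.

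Of 25 genes known to respond to STAT3, 8 were higher and 1 lower without overlap, beside 14% and 9.14% of all genes tested, with a median of 0.86. The median was 0.27 with on-DMBA replicate 1 left out and 1.45 with replicate 2 left out. Lrg1, a secreted glycoprotein, was at 0.594, 17.6, 56.7 and 84.4 scaled CPM, a log2 difference of 3.97 (SE 1.37, limma unadjusted p = 0.0324, adjusted p = 0.9997). Without on-DMBA replicate 1 it was 1.95, from 1 on-DMBA library against 2 at 1 week. Timp1, a metalloproteinase inhibitor, was at 2.85, 80.0, 116 and 136, and Lcn2, the lipocalin that binds bacterial siderophores, at 1.07, 1.62, 3.91 and 4.85. Hp, the haptoglobin gene, named after its values were seen, was at 0.237, 228, 260 and 377, so that 3 libraries were high and on-DMBA replicate 1 was at 2 reads. Of the 25 log2 differences, 19 were above 0 and 6 below. Ccnd1 and Myc, 2 of these 6, were also named after their values were seen. Ccnd1, the 1 gene lower without overlap, was at 671, 229, 109 and 204. Myc was at 53.8, 4.31, 11.4 and 10.1, highest in on-DMBA replicate 1, and overlapped.

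Of 13 inducers and feedback genes of NF-kappaB, which with AP-1 drives Il6, 8 were higher and 0 lower without overlap, beside 14% and 9.14% of all genes tested. All 13 log2 differences were above 0, as were 7507 of the 15419 over all genes tested. The median was 0.96, and it was 0.38 without on-DMBA replicate 1. Tnfaip3, the feedback inhibitor A20, was at 17.3, 72.7, 113 and 135 scaled CPM, Nfkbie at 4.51, 35.5, 50.2 and 75.2 and Nfkb2 at 48.8, 73.8, 122 and 138. These 3 genes were named for the smallest unadjusted limma p of the list, which favours groups that separate. In each of them on-DMBA replicate 1 was lowest and on-DMBA replicate 2 next, with both 1-week libraries above. Nfkb1, Rela, Il1a, Birc3 and Bcl3 of the same list overlapped between groups. Bcl3 is on both this list and the STAT3 list, and Il4ra on both the STAT3 and the TSLP receptor list.

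**Figure D4:**
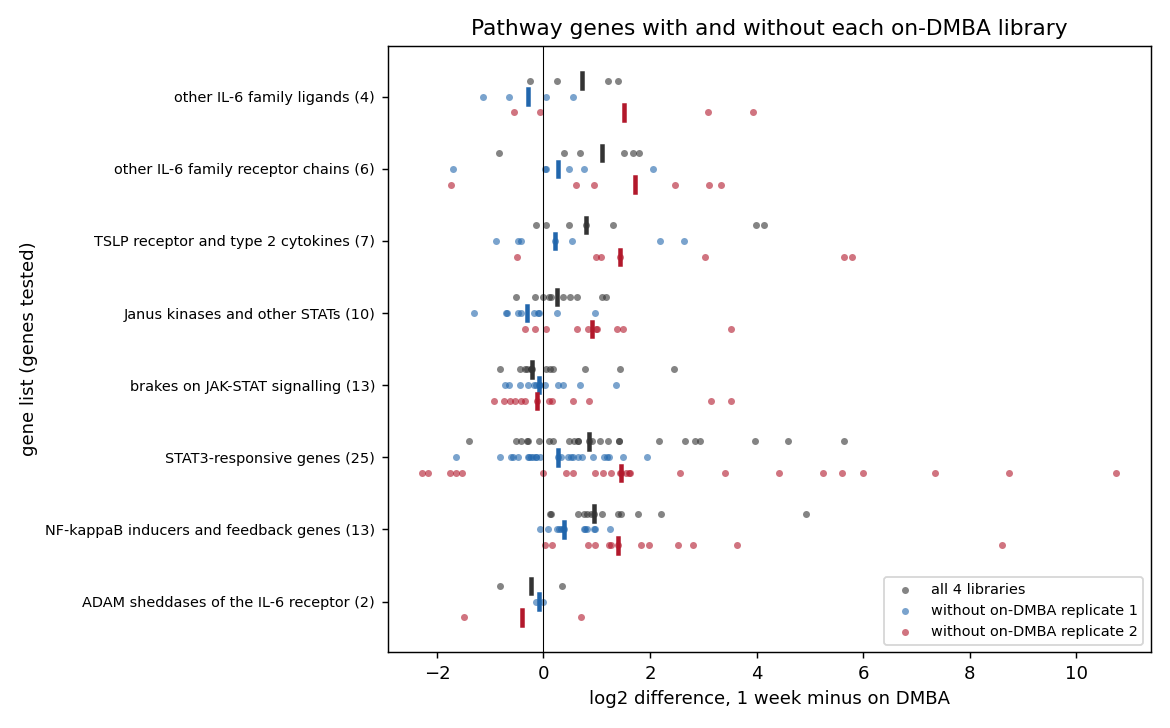
Log2 differences, 1 week minus on DMBA, of the tested genes of each list, with all 4 libraries (black) and without on-DMBA replicate 1 (blue) or 2 (red); a point is a gene and a bar the median. The median of the STAT3-responsive genes is at 0.86, 0.27 and 1.45 in that order.

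The genes most like Il6, Tslp and Socs3 in their pattern over the 4 libraries were sought by the root mean square difference of centred log2 levels, among 11045 genes whose mean over the libraries was 5 scaled CPM or higher. With 4 libraries many genes can lie close by, and no test was made. Nearest to Il6 were Itgb3 (0.07), Pi16 (0.20) and Mmp2 (0.21), which encode an integrin chain, a peptidase inhibitor and a gelatinase, and 60 genes lay within 0.5. Mmp2, for example, was at 6.53, 286, 610 and 622 scaled CPM. Nearest to Socs3 were Crlf2 (0.05), Jdp2 (0.07) and Prelp (0.08), with 474 genes within 0.5. Nearest to Tslp were Vldlr (0.39), Slc5a1 (0.40) and P2ry1 (0.45), with only these 3 of the 11045 genes within 0.5. Vldlr, a lipoprotein receptor, was at 86.9, 16.5, 7.50 and 5.71, and P2ry1, a receptor for extracellular ADP, at 88.4, 18.0, 10.5 and 5.42.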

How the data were processed

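RNA of sorted cells from 4 mouse tumours was depleted of ribosomal RNA and sequenced by a protocol that keeps the strand, per the labels' protocols. The submitters' processing notes list CASAVA 1.8.2, TopHat2 2.1, HTSeq, edgeR 3.2.3 and build mm9, without roles. No source used here states annotation or strand setting. The authors deposited 1 normalised signal for each gene and library under the name CPM. Column totals were 1149287 and 1011509 (on DMBA) and 867697 and 1092838 (1 week), unlike plain CPM, so the signal is named scaled CPM. In each library all values (100%) were multiples of a step (tolerance 0.01 reads) of 0.119, 0.179, 0.156 and 0.143 scaled CPM, taken as 1 read. The design had assumed plain CPM, and the log-scale test was kept.

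Genes reaching 1 scaled CPM in 2 or more libraries (15419) were tested by limma 3.58.1 in R 4.3.3 on log2(scaled CPM + 0.5), with trended eBayes, two-sided, adjusted by Benjamini-Hochberg over all genes tested at a threshold of 0.05. Fold changes on this scale understate those of low genes. For 2 against 2 the smallest exact permutation p is 0.333. Nothing beyond the mouse labels says how independent the samples are. The alternatives were pseudocounts of 0.1 and 1, filters of 5 scaled CPM or none, quantile normalization, median ratio scaling, robust or untrended eBayes, a replicate block, each library left out, and edgeR 4.0.16 and DESeq2 1.42.0 on the recovered reads. On the recovered reads edgeR passed 0 genes (unadjusted p under 0.05 in 229 higher and 42 lower) and DESeq2 16 higher and 3 lower, 0 of the 10 genes among them. The methods were also run on simulated counts, in which the replicates of a group had the same expected levels. The on-DMBA libraries here differed widely in marker levels, so that run does not show how the methods perform on these data.

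The 10 genes and the lists were chosen with earlier results of these data known. The genes named were all 10, from each list the members that passed or else the 3 with the smallest p, a few fixed receptors, kinases and regulators, and the 3 genes nearest in pattern, of which some are left out here. Hp, Ccnd1, Myc and Cntfr were named after their values were seen. Promoters were matched by symbol for 8 of the 10 genes in RefSeq (GRCm38.p6), which is not the build of the files.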

Additional observations from a re-analysis of the deposited data

How the results depend on the processing

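With 2 libraries per group, limma passed 0 genes in either direction, and 0 of the 10 genes, under both other pseudocounts, both other filters, both other scalings and both other variance models. DESeq2 passed 16 higher and 3 lower. With a replicate block limma passed 285 higher (1.85%) and 3 lower genes and 1 of the 10, Il6 (log2 difference 3.94, adjusted p = 0.0129); the replicate numbers mark different mice and do not pair them, and over genes the replicate differences of the groups had a correlation of 0.02. Leaving out each library in turn gave 0 to 2212 higher genes, 0 to 1549 lower genes and 0 to 5 of the 10 genes, the highest each time without on-DMBA replicate 2; without either 1-week library all 3 counts were 0. Among the 10 genes, 4 to 8 were then higher without overlap, with 8 when on-DMBA replicate 2 was left out. From 1 to 4 were lower, with 4 when on-DMBA replicate 1 was left out. With 1 library against 2, groups separate more easily, and the share of all genes was not counted in these settings. These counts therefore cannot be set beside the 14% and 9.14% found with all 4 libraries. Median ratio scaling of all 4 libraries made 2 lower. Over the libraries left out, the log2 difference ranged from -0.57 to 1.51 for Il6st and from -0.47 to 2.94 for Socs3, the only 2 of the 10 genes whose sign turned under any alternative run. Among the other named genes the range was -0.64 to 3.08 for Ebi3, -0.060 to 0.55 for Clcf1, -0.28 to 3.15 for Ptpn6, -0.072 to 0.75 for Adam17, -1.69 to 2.47 for Lifr, -0.43 to 3.04 for Crlf2 and -0.56 to 0.23 for Jak1. On recovered reads Lifr was at -0.76 (edgeR) and -0.81 (DESeq2), and after quantile normalization Clcf1 was at -0.14 and Jak1 at 0.013. Pseudocounts of 0.1 and 1 moved Il6 to 5.11 and 3.43. Quantile normalization moved the median of all genes to -0.15. The filter of 5 left out Tslp, so it gave no value there. The cause of these changes was not tested. Low counts limit Tslp most, with 2 reads in its lowest library. Il6 had 0 reads in on-DMBA replicate 1, the library with the most recovered reads, which leaves the size of its fold there uncertain.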
